A study of Mus musculus with 8 samples.

Results

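The 35 genes described here encode the machinery of macroautophagy, from the kinase that starts it to the proteins that carry cargo into the autophagosome. They were chosen by name from the mouse array: 50 non-control probes carried a member's name, of 55681 non-control probes in all. Of the 35 genes, 34 were listed under their present symbol, and Tfeb was listed under its older symbol, Tcfeb. A gene counted as measured if the scanner software flagged a probe of it as well above background on 4 or more arrays, which held for 33 of the 35 members and for 26954 genes in all. Atg4a was well above background on 1 WT and 2 R6/2 arrays and Atg9b on 1 WT and 0 R6/2 arrays, so both were left untested.

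Expression was measured in medium spiny neurons, the projection neurons of the striatum, from male mice aged 4 weeks. The R6/2;Scn4b-Venus group carried the R6/2 transgene, a fragment of the human huntingtin gene with exon 1 and an expanded CAG repeat under the human promoter, which gives an early and severe model of Huntington's disease. The control group was WT;Scn4b-Venus. Both groups carried the Scn4b-Venus reporter, and both were sorted for Venus fluorescence and for exclusion of propidium iodide, a dye that enters dead cells. Each group had 4 arrays, here called WT and R6/2 replicates 1 to 4. The labels do not say whether each array is a separate mouse. The p-values therefore set a difference against a spread between samples that may be partly technical.

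Autophagy encloses cytoplasm in a double membrane and delivers it to the lysosome. The Ulk kinase complex starts the process, a class III phosphatidylinositol kinase complex built on Becn1 marks the membrane, and Atg2, Atg9 and Wipi proteins supply and extend it. A pair of ubiquitin-like conjugation reactions then attaches Atg8 proteins, the LC3 and Gabarap families, to the growing membrane, where receptors such as Sqstm1 bring in cargo. Neurons depend on this pathway for removal of aggregated protein, including mutant huntingtin.

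None of the 33 measured autophagy genes differed between R6/2 and WT at an adjusted p below 0.05 (limma with Benjamini-Hochberg adjustment over all genes), and the lowest adjusted p of a member was 0.593. Over all genes, 1 of 26954, or 0.00371%, passed. The R6/2 minus WT difference was positive for 13 members and negative for 20, with a median of -0.02 on the log2 scale and a range from -1.66 to 0.58. Across all genes the median was 0.03, and 54% of genes had a positive difference. The lowest levels relative to WT were those of Atg16l2 and Atg2b. These were also the only members whose 4 R6/2 arrays all lay below the 4 WT arrays, and the only ones with an unadjusted p under 0.05. The 2 of 33 members with non-overlapping groups and lower R6/2 levels stand beside 2.57% of all genes. No member had non-overlapping groups with higher R6/2 levels, beside 2.16% of all genes. At an unadjusted p under 0.05 the members gave 2 lower and 0 higher, beside 3.45% and 3.7% of all genes.

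**Figure D1:**
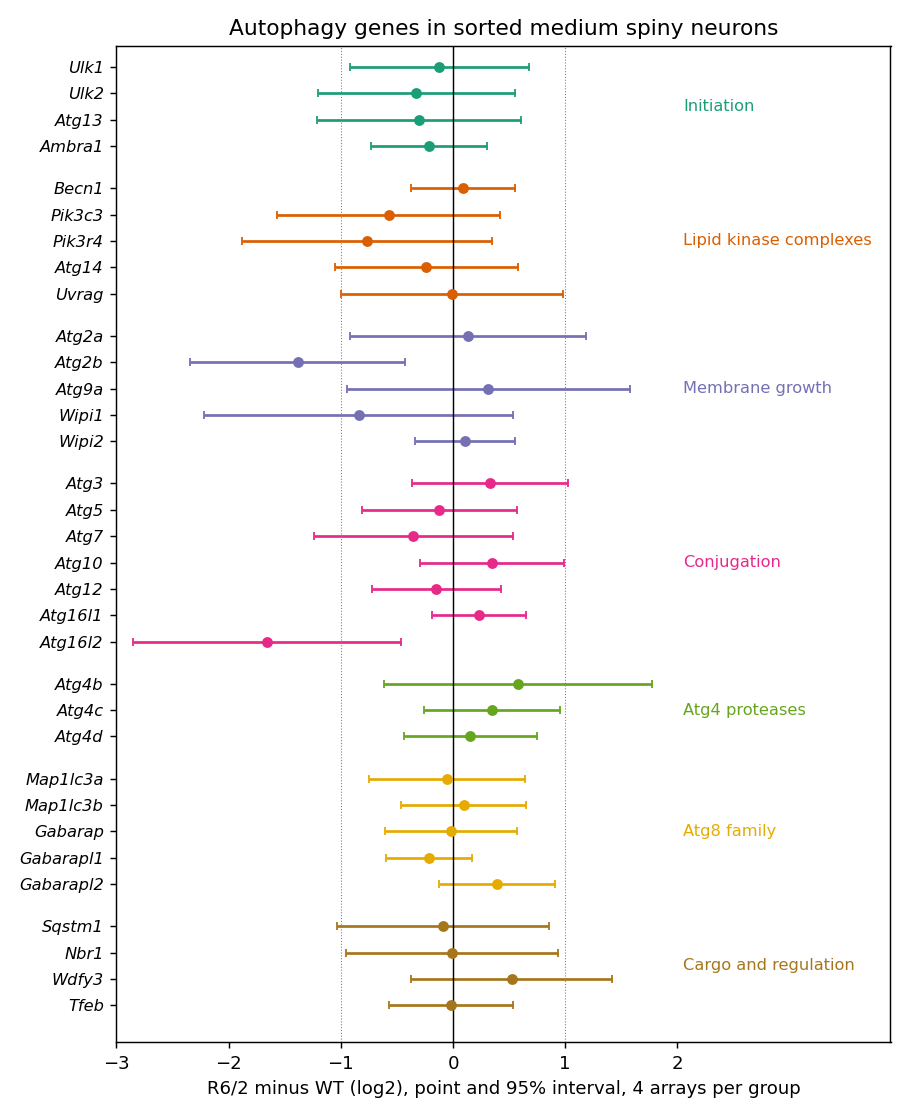
R6/2 minus WT difference of each of the 33 measured autophagy genes (x axis, log2; point and 95% interval, 4 arrays per group), grouped by role in the pathway; dotted lines mark 1 log2 unit either side of 0. The intervals of Atg2b and Atg16l2 lie wholly below 0, and 18 of the 33 lie between the dotted lines.

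How large a difference these arrays could have shown varied with the gene. The 95% interval lay within 1 log2 unit of 0 for 18 of 33 members (54.5%), beside 51.5% of all genes. The median standard error was 0.35 for members and 0.30 for all genes. It was 0.26 for the 17 members whose level exceeded the array's 75th percentile, where 14 intervals lay within 1 log2 unit of 0. For the 16 members below that level it was 0.41, and 4 intervals did so. For most of the dimmer members the interval thus held differences of more than 2-fold.

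**Figure D2:**
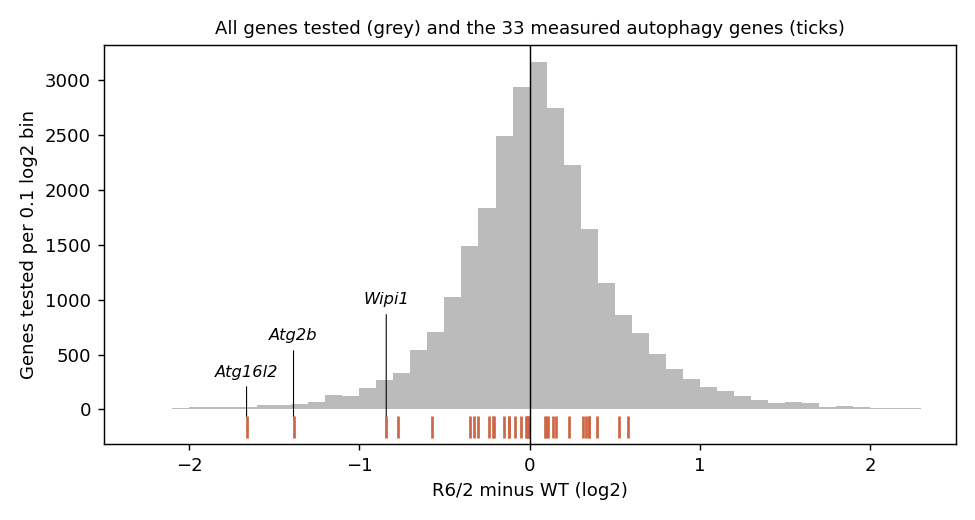
Number of genes (y axis) by R6/2 minus WT difference (x axis, log2, bins of 0.1) for all genes tested, in grey, with the 33 measured autophagy genes as ticks beneath. Most ticks lie in the centre of the grey distribution, whose 5th and 95th percentiles were -0.71 and 0.86. The Atg16l2, Atg2b, Wipi1 and Pik3r4 ticks lie below the 5th percentile, and no tick lies above the 95th. Outside the plotted range lie 48 genes.

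The arrays were not of equal quality. Between 50.1% and 76.2% of probes were well above background on the WT arrays and between 74.0% and 78.8% on the R6/2 arrays (66.6 ± 11.5 and 76.0 ± 2.00, SD, n = 4 each; two-sided exact permutation p = 0.114). WT replicate 1 stood apart, with the lowest share and with a lowest detected intensity of 51.3 units, against 10.6 to 17.5 on the others. The arrays came from 2 slides, 1 holding R6/2 replicate 4 by itself and the other holding the remaining 7. Medium spiny neuron markers were present at high levels, as the label states. Their summed level was 1067 to 1292 times the array's 75th percentile in WT and 715 to 815 times in R6/2, and all 14 were measured with a median difference of -0.64. Scn4b, the gene behind the sorting reporter, had a mean log2 level of 6.27 in WT and 5.12 in R6/2. Summed levels of astrocyte markers (1.28 to 1.73 in WT and 1.06 to 3.23 in R6/2), microglial markers (20.4 to 32.4 and 26.0 to 32.2) and oligodendrocyte markers (6.24 to 41.2 and 6.10 to 13.5) overlapped between the groups. The microglial sums were mostly Csf1r, with a mean log2 level of 4.46 in WT and 4.62 in R6/2. Their part in the gene differences below was not tested. In a sorted bulk sample, fewer cells of a type and less RNA per cell cannot be told apart.

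The sequences shown are the first 30 bases of the 60-base array probes for the genes on which the results turn, because several genes are read by more than 1 probe and the probes do not all give the same answer. Positions are those of the mm9 build in the array files, and each probe lies within the transcripts that the files name for it; whether it lies in coding sequence or UTR was not analysed here. Atg2b was read by 1 probe at chr12:106851843-106851902 on the minus strand.
Atg2b: ctaagtatggccactctggatgtaaataag
Atg16l2 was read by a brighter probe at chr7:108438181-108438240 and a dimmer one at chr7:108438916-108439146, both on the minus strand. The genomic span of the dimmer probe is longer than the probe, so it crosses an exon junction. The lower genomic coordinates of the probes are 735 bases apart. In the transcript the brighter probe starts at base 2053 and the dimmer at base 1644.
Atg16l2, brighter probe: caggacctggcctgtttgttaaaaatcaaa
Atg16l2, dimmer probe: cacactcaaggttatcgacctgcgaatcag
Wipi1 was read by 3 probes on the minus strand, the brightest at chr11:109436607-109436666, another at chr11:109435140-109435199 and the last at chr11:109443686-109443745. The brightest probe is assigned to an Ensembl transcript and not to the RefSeq transcript named for the other probes, so they may not read the same transcript.
Wipi1, brightest probe: atccacaactactaacatttaaatgtgcct
Wipi1, the second probe: tgtcaggtggttttggagagaacgaggaaa
Wipi1, the third probe: gtgtgcctccagcaacacggagaccgtgca

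Among the genes that start autophagy, all 4 measured members had negative differences for their brightest probe, with a median of -0.26 and no group separated. Ulk1 encodes the kinase that receives nutrient signals. Its log2 level over the array's 75th percentile, the scale used throughout, was 2.46, 3.62, 2.36 and 2.54 in WT and 2.53, 3.02, 2.00 and 2.95 in R6/2. The WT mean of 2.75 ± 0.59 and the R6/2 mean of 2.62 ± 0.47 (SD, n = 4) differed by -0.12 ± 0.35 (SE), and the arrays overlapped. The related kinase gene Ulk2 differed by -0.33 for its brighter probe and by 0.32 for the other, and the mean of both gave -0.0014. The complex subunit gene Atg13 differed by -0.30, and Ambra1, whose product links the kinase to the Becn1 complex, by -0.22. The Ambra1 interval was -0.74 to 0.30.

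In the lipid kinase complexes, 4 of the 5 measured members had a negative difference and none was separated, with a median of -0.24. Becn1, the scaffold, was at -0.51, -0.60, -0.33 and -0.06 in WT and at -0.58, -0.08, -0.16 and -0.31 in R6/2. Its groups overlapped almost completely, and the difference was 0.09 ± 0.20 (SE), with a 95% interval of -0.37 to 0.55. Pik3r4, the regulatory subunit, was at -0.06, 1.94, 1.18 and 0.20 in WT and at 0.55, -0.71, -0.21 and 0.54 in R6/2. WT replicates 2 and 3 were the high samples, WT replicates 1 and 4 lay within the R6/2 range, and the difference of -0.77 ± 0.49 (limma adjusted p = 0.781) was -0.39 without WT replicate 2. Pik3c3, the catalytic subunit, was at -0.07, 0.80, 1.09 and 0.58 in WT and at -1.23, 0.53, 0.35 and 0.46 in R6/2. R6/2 replicate 1 was far below the rest, and the difference of -0.57 ± 0.44 (limma adjusted p = 0.813) was -0.15 without it. The other Pik3c3 probe differed by -0.24. Atg14, which directs the complex to the forming membrane, differed by -0.24, and Uvrag, which marks its endosomal form, by -0.01.

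The genes for membrane supply and growth held 1 of the 2 separated members. Atg2b encodes a lipid transfer protein that feeds the growing membrane. It was at -1.58, -0.36, -1.88 and -1.21 in WT and at -2.10, -2.90, -2.12 and -3.46 in R6/2. Every R6/2 array lay below every WT array, although the gap between WT replicate 3 and R6/2 replicate 1 was small. The mean was -1.26 ± 0.66 in WT and -2.64 ± 0.66 in R6/2 (SD, n = 4), a difference of -1.39 with an interval of -2.34 to -0.43, or 2.61-fold. The limma p was 0.00979 unadjusted and 0.593 adjusted over all genes, and Atg2b ranked 443 among all genes by p. Its paralogue Atg2a was at -0.16, -2.01, -1.38 and -0.68 in WT and at -1.58, -0.60, -0.18 and -1.32 in R6/2. Those groups overlapped over most of their range, and the difference was 0.14 ± 0.46.

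Wipi1 and Wipi2 encode proteins that bind the lipid made by the kinase complex. The brightest Wipi1 probe was at -1.39, -0.63, -2.01 and -1.01 in WT and at -3.83, -0.85, -1.67 and -2.04 in R6/2. The groups overlapped, R6/2 replicate 1 was by far the lowest, and the difference of -0.84 ± 0.60 was -0.26 without that array. The second Wipi1 probe read -1.27, -2.17, -1.87 and -1.70 in WT and -2.39, -3.14, -2.11 and -3.35 in R6/2. Only WT replicate 2 and R6/2 replicate 3 overlapped there, and the difference was -0.99 ± 0.34 (limma p of 0.0174 unadjusted and 0.644 adjusted over all probes). The third differed by -0.89 ± 0.52, so all 3 Wipi1 probes had negative differences. Wipi2 differed by 0.11 ± 0.20 with an interval of -0.34 to 0.56. Atg9a, which encodes the membrane protein of the vesicles that seed the structure, differed by 0.31 ± 0.55, with arrays from -2.43 to -0.22 in WT and from -1.80 to 0.19 in R6/2. Without WT replicate 2, its lowest array, the Atg9a difference was -0.11.

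**Figure D3:**
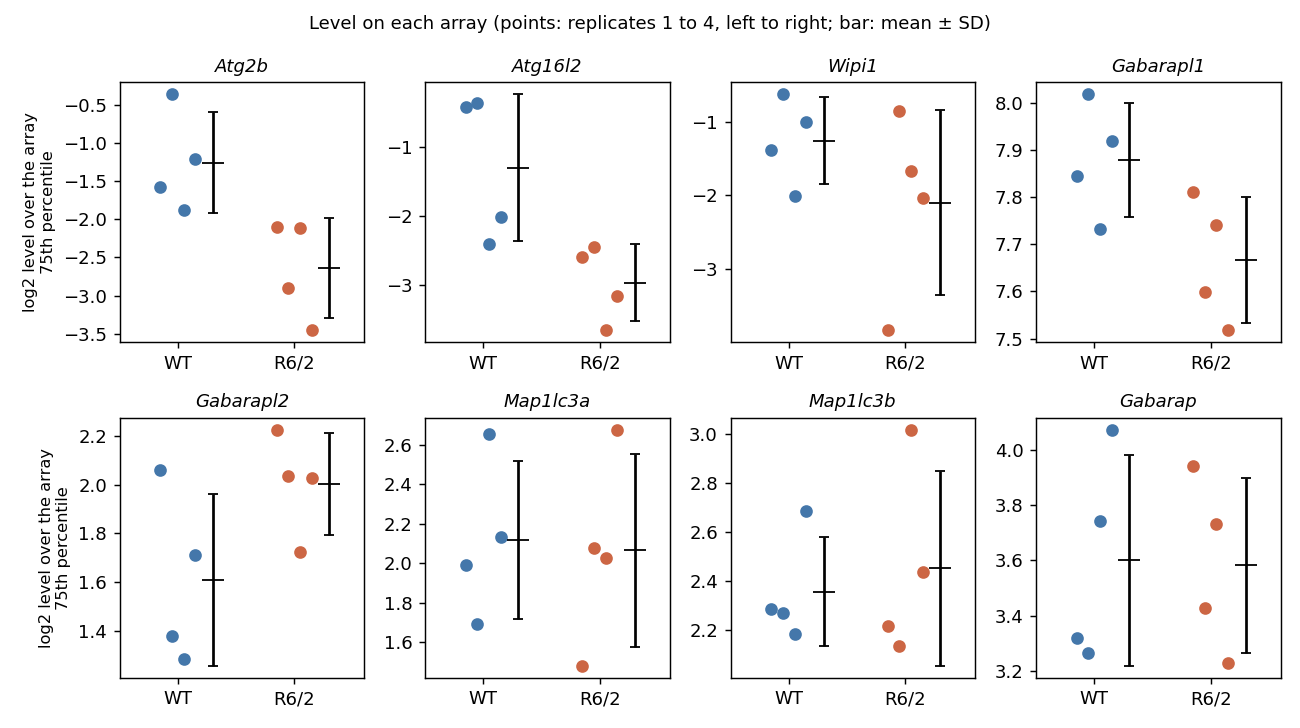
Log2 level over the array's 75th percentile (y axes, scaled separately for each gene) of Atg2b, Atg16l2, Wipi1 and the 5 Atg8 family genes on each array, with points for replicates 1 to 4 from left to right and bars for mean ± SD (n = 4). The WT and R6/2 points are fully separated for Atg2b and Atg16l2 and overlap for the other 6 genes.

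The conjugation enzymes held the other separated member, and its probes disagreed. Atg16l2 encodes a homologue of Atg16l1, the subunit that places Atg8 conjugation on the membrane. Its brighter probe was at -0.42, -0.36, -2.40 and -2.02 in WT and at -2.60, -2.44, -3.65 and -3.15 in R6/2. The WT arrays formed a high pair and a low pair, and the low pair lay just above the highest R6/2 array. The means were -1.30 ± 1.06 and -2.96 ± 0.55 (SD, n = 4), a difference of -1.66 with an interval of -2.86 to -0.47, or 3.16-fold (limma p of 0.0122 unadjusted and 0.605 adjusted).

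The dimmer Atg16l2 probe read -3.38, -2.60, -2.12 and -3.18 in WT and -2.90, -2.46, -1.74 and -1.35 in R6/2, a difference of 0.71 ± 0.41 in the opposite direction. This probe was well above background on 3 of the 4 WT arrays and on all 4 R6/2 arrays, so its WT values lie near the detection limit. The brighter minus dimmer gap was 1.52 ± 1.41 in WT and -0.85 ± 1.17 in R6/2 (SD, n = 4; two-sided exact permutation p = 0.0857, and 0.941 after Benjamini-Hochberg adjustment over the 17 probe pairs compared, where 0.0286 is the smallest p that 4 against 4 allows). With the mean of both probes in place of the brighter, the Atg16l2 difference was -0.48, with an unadjusted limma p of 0.112.

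The remaining 6 conjugation genes all had overlapping groups. Atg16l1 was at 4.98, 4.57, 4.80 and 4.45 in WT and at 4.98, 4.94, 4.78 and 5.02 in R6/2. The R6/2 arrays lay within or above the WT range, and the difference was 0.23 ± 0.18, with an interval of -0.19 to 0.65. Atg7, the enzyme that activates both ubiquitin-like proteins, differed by -0.35 ± 0.39, and its other probe by 0.30. Atg3 and Atg10, the enzymes that pass on the Atg8 proteins and Atg12, differed by 0.33 and 0.35, and Atg3 by 0.044 without WT replicate 2. Atg5 and Atg12, which are joined to each other by the reaction, differed by -0.12 and -0.15.

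The 3 measured Atg4 proteases, which process Atg8 proteins and release them from membrane, all had positive differences, with a median of 0.35. WT replicate 2 was the lowest of the 8 arrays for each of them. Without it the differences were 0.16 for Atg4b, 0.19 for Atg4c and 0.031 for Atg4d. Atg4b was at -0.49, -2.18, -0.61 and -0.37 in WT and at -1.58, -0.11, 0.17 and 0.18 in R6/2. WT replicate 2 and R6/2 replicate 1 were the low samples of their groups, and the difference of 0.58 ± 0.52 (limma adjusted p = 0.85) was 0.99 without R6/2 replicate 1. Atg4c differed by 0.35 ± 0.27 and Atg4d by 0.16 ± 0.26, both with overlapping groups.

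The 5 Atg8 family genes had small differences, 3 negative and 2 positive with a median of -0.02, and all 5 intervals lay within 1 log2 unit of 0. Probe sequences are shown because family members resemble each other in their coding sequence, which could let a probe read a relative. The probes of different genes shared no run of more than 7 bases, but this compares the probes only with each other. Whether a probe matches the transcript of a relative was not tested. The probes shown lie at chr6:129492254-129492313 for Gabarapl1, chr8:114476386-114476445 for Gabarapl2 and chr11:69808343-69808402 for the brightest Gabarap probe, all on the plus strand.
Gabarapl1: caatctgtacgtctgttttgtcagcttcag
Gabarapl2: ctccacacagacctactagtgcatttgtaa
Gabarap: aatcccttcctttcactatcttctttttgg

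Gabarapl1, the member best known for high expression in brain, was at 7.84, 8.02, 7.73 and 7.92 in WT and at 7.81, 7.60, 7.74 and 7.52 in R6/2. The groups overlapped by a narrow margin, and the SD was 0.12 in WT and 0.13 in R6/2. The difference was -0.21 ± 0.17 (limma adjusted p = 0.821), and its interval, -0.59 to 0.17, corresponds to an R6/2 over WT ratio between 0.663 and 1.13.

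Gabarapl2 was at 2.06, 1.38, 1.29 and 1.71 in WT and at 2.23, 2.03, 1.72 and 2.03 in R6/2. WT replicate 1 was the high WT sample and the one within the R6/2 range, and the difference was 0.39 ± 0.23 (limma adjusted p = 0.765). Without WT replicate 1 it was 0.54, with a limma p of 0.0363 unadjusted and 0.657 adjusted.

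The LC3 genes, whose products are the usual markers of autophagosomes, had differences close to 0. Map1lc3a was at 1.99, 1.69, 2.66 and 2.13 in WT and at 1.48, 2.08, 2.03 and 2.68 in R6/2, a difference of -0.05 with an interval of -0.75 to 0.64. Map1lc3b was at 2.28, 2.27, 2.18 and 2.69 in WT and at 2.21, 2.13, 3.02 and 2.44 in R6/2, with an interval of -0.46 to 0.65. Their ranges overlapped over most of their length in both cases. The brightest Gabarap probe was at 3.32, 3.26, 3.74 and 4.07 in WT and at 3.94, 3.43, 3.73 and 3.23 in R6/2, a difference of -0.02 ± 0.26. A dim Gabarap probe at chr11:69804812-69804871 differed by 1.09 ± 0.52 (unadjusted limma p of 0.0705), from -4.55, -3.59, -2.98 and -3.80 in WT to -1.27, -2.94, -3.64 and -2.73 in R6/2.

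The cargo receptors and regulators had no separated member. Sqstm1, the p62 receptor for ubiquitinated protein, was at 1.12, -0.42, 0.97 and 1.59 in WT and at 0.53, 0.52, 1.19 and 0.67 in R6/2. The WT arrays spread over a wider range that held all R6/2 arrays, and the difference was -0.09, with an interval of -1.04 to 0.86; its other probe differed by 0.75 ± 0.75. Nbr1, a related receptor, differed by -0.01 with an interval of -0.95 to 0.93.

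Wdfy3, which encodes a large adaptor for aggregate removal, was at -0.45, -2.04, -0.62 and -0.33 in WT and at -0.12, -0.33, -0.06 and -0.82 in R6/2. WT replicate 2 was the low sample, and the difference of 0.52 ± 0.39 (limma adjusted p = 0.81) was 0.13 without it. The other Wdfy3 probe differed by 0.19. Tfeb, a transcription factor that activates lysosomal and autophagy genes, was at -2.40, -1.80, -2.02 and -2.04 in WT and at -2.22, -2.31, -2.28 and -1.52 in R6/2. The groups overlapped, the difference was -0.02 with an interval of -0.57 to 0.53, and the other Tfeb probe differed by -0.11.

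**Figure D4:**
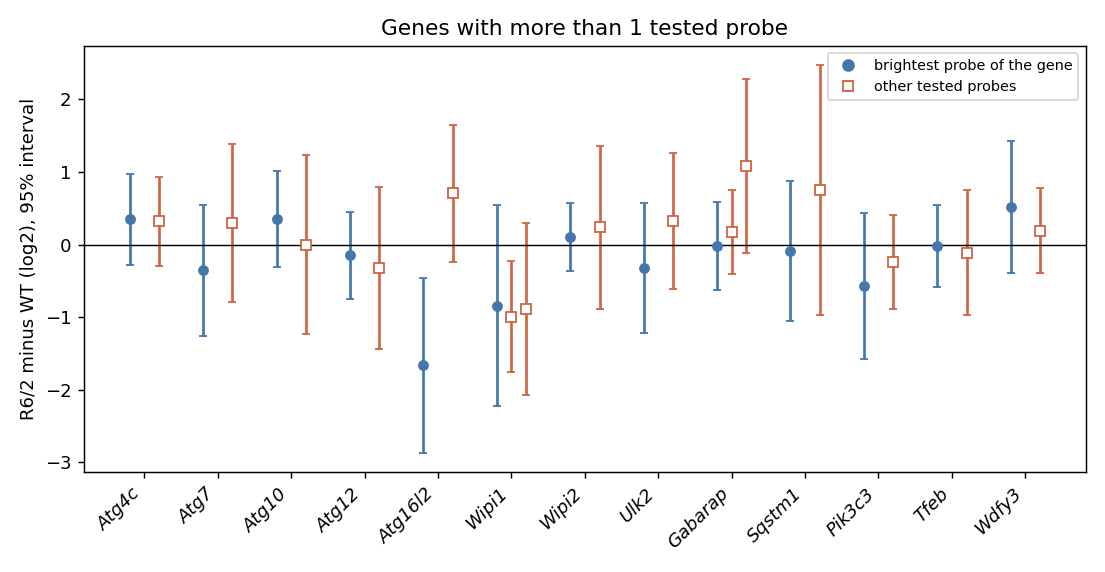
R6/2 minus WT difference (y axis, log2, with 95% interval, 4 arrays per group) for the brightest probe, in blue, and the other tested probes, in orange, of the 13 members with several probes. The pair of Atg16l2 probes lies on opposite sides of 0, whereas all 3 Wipi1 probes lie below it.

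Of the 35 members, 13 were read by several probes and 22 by 1. Across the 48 tested probes, 0 passed an adjusted p below 0.05 in limma (0.00242% of all probes did), and 3 had an unadjusted p under 0.05, all with lower R6/2 levels, beside 7.02% of all probes in either direction. Of the 17 pairs of a gene's probes, 10 had differences of the same sign and 7 of opposite sign. Some of these probes were close to the detection limit. The dimmer Atg7 and Sqstm1 probes were well above background on 2 WT arrays. The dimmer Atg16l2 and Tfeb probes, the dimmest Gabarap probe and the third Wipi1 probe were so on 3 WT arrays. Each of them was well above background on 4 R6/2 arrays. Overlapping probes are not separate evidence: the Atg4c probes share 44 bases and the Pik3c3 probes 13.

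Promoters were searched for the E-box that Tfeb-type factors bind, since Tfeb and its possible targets are both on the list. The search used RefSeq promoters of the GRCm38.p6 build, windows of 300 bases that lie mostly before a gene's start, and was possible for 29 members. The letters CACGTG, a palindrome and so the same on both strands, stood in the promoters of 4 of 29 members (13.8%), Atg3, Atg5, Atg7 and Atg14, in 7.15% of all promoters and in a promoter of 8.09% of all genes. The longer TCACGTGA, which contains it, stood in 1 of 29 (3.45%), Atg3, in 0.974% of all promoters and in a promoter of 1.12% of all genes. The CLEAR palindrome, which extends it by 1 base on each side, stood in 0 of 29, in 0.326% of all promoters and in a promoter of 0.370% of all genes. The Atg3 match is shown in capitals with its flanks, at chr16:45158746-45158775 on the plus strand.
Atg3 promoter: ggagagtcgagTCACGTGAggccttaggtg
The 4 genes with CACGTG differed by 0.33 for Atg3, -0.12 for Atg5, -0.35 for Atg7 and -0.24 for Atg14, without a common sign.

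The wider pathway was read from a list of 69 other autophagy and lysosome genes, of which 67 were measured. None differed at an adjusted p below 0.05 in limma, the lowest being 0.549, and the median difference was 0.02 with 37 positive and 30 negative. At an unadjusted p under 0.05, 2 were higher in R6/2 and 5 lower, beside 3.7% and 3.45% of all genes. Groups did not overlap for 2 with higher R6/2 levels (2.16% of all genes) and for 3 with lower levels (2.57%).

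Atp6ap1, an accessory subunit of the proton pump that acidifies lysosomes, was at 2.42, 2.30, 2.34 and 2.50 in WT and at 2.98, 2.93, 3.02 and 2.98 in R6/2. The groups were far apart relative to their spread, and the difference was 0.59 ± 0.15 (limma p of 0.00472 unadjusted and 0.549 adjusted). Grn encodes progranulin, a lysosomal protein also made by microglia. It was at 0.14, 0.18, 0.65 and 0.80 in WT and at 1.09, 1.39, 1.07 and 1.27 in R6/2, a difference of 0.76 ± 0.21 (limma p of 0.00671 unadjusted and 0.555 adjusted). Every R6/2 array lay above every WT array. Of 7 microglial markers, 6 were measured and P2ry12 was not, with differences from -1.56 for Aif1 to 0.88 for Cx3cr1 and summed levels of 20.4 to 32.4 in WT and 26.0 to 32.2 in R6/2. These sums were mostly Csf1r, and the other measured markers had WT mean log2 levels from -4.30 for C1qa to 1.23 for Aif1. The part of microglial RNA in the Grn difference was not tested.

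Foxo1, a transcription factor with autophagy genes among its targets, was at 3.68, 3.20, 3.24 and 3.47 in WT and at 3.04, 2.64, 2.80 and 2.00 in R6/2. All R6/2 arrays lay below the WT arrays, and the difference was -0.78 ± 0.26 (limma p of 0.0152 unadjusted and 0.614 adjusted). Bcl2l1, whose product binds Becn1 and restrains it, had groups that did not overlap and differed by -0.60 ± 0.20. Vps39, a subunit of the tether that joins vesicles to lysosomes, differed by -0.59 ± 0.25, also without overlap. Zkscan3, a repressor of autophagy genes, differed by -0.93, and Tecpr1, a factor in fusion with lysosomes, by -0.88, both with overlapping groups.

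In the authors' deposited table a probe is marked up where its own deposited R6/2 mean is the higher one, for 55680 of 55680 probes compared. With up read as higher in R6/2, the authors' deposited table gave the same sign as the fit for 33 of 33 members. In the authors' deposited table, Atg2b had a fold of 2.62 with a p of 0.0246, corrected to 0.836, and Atg16l2 a fold of 3.17 with a p of 0.0319, corrected to 0.838, both lower in R6/2. It gave no member a corrected p below 0.05.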

How the data were processed

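Total RNA (4 to 20 ng) from sorted cells was hybridised to 1-colour Agilent arrays with Cy3, per the labels. Intensity values were extracted by the authors with Feature Extraction 10.7.3.1, per the file headers, which background-corrects the processed signal. The authors also deposited log2 values, which matched the raw signal over each array's 75th percentile, and a table of fold ratio, p-value and corrected p-value. From the processed intensity, log2 levels were computed relative to each array's 75th percentile over non-control probes, with flagged outlier spots left out and spots averaged per probe. A total of 1 unreadable line of R6/2 replicate 3 was left out. Probes well above background on at least 4 of 8 arrays were tested with limma 3.58.1 in R 4.3.3 (two-sided, Benjamini-Hochberg over all 26954 genes), which was tested on simulated data. A gene was represented by its brightest tested probe, no probe was saturated, and the number of arrays limits the precision.

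Named genes were all members, the other pathway genes at an unadjusted p under 0.05, and the marker lists. Members and lists were chosen with earlier results of these data known. Replicate numbers were not used for pairing. Alternatives changed the background correction, scaling, filter, probe rule, test, replicate block, slide and the arrays included.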

Additional observations from a re-analysis of the deposited data

Results flagged for a closer look

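In 66 groups of 4 arrays (33 members in each genotype), 9 values lay apart from the other 3 of their group. Each gap was more than 0.829 of the group's range, Dixon's 95% limit. Chance flags about 1 group in 20, but this rate is for independent groups, and these groups share the same arrays. The rule was not applied to all genes, so whether members were flagged more often than other genes was not tested. WT replicate 2 held 4 of the 9 values. It was lowest for Atg4b at -2.18 (next -0.61), Nbr1 at -1.69 (next -0.35) and Wdfy3 at -2.04 (next -0.62), and highest for Ulk1 at 3.62 (next 2.54). R6/2 replicate 1 held 3, all low: Pik3c3 at -1.23 (next 0.35), Atg4b at -1.58 (next -0.11) and Atg7 at -2.88 (next -1.79). R6/2 replicate 4, alone on its slide, held the other 2, with Tfeb highest at -1.52 (next -2.22) and Ambra1 lowest at 2.88 (next 3.36). Each flagged value is that of the gene's brightest probe, and the gene's other probe did not always repeat it. The other Pik3c3 probe read -0.23 on R6/2 replicate 1 and -0.15 on R6/2 replicate 4. The other Wdfy3 probe read -1.72 on WT replicate 2 and -1.80 on WT replicate 1. The other Tfeb probe was lowest of the R6/2 arrays on replicate 4, at -3.85. The other Atg7 probe was also lowest of the R6/2 arrays on replicate 1, at -4.22. The part of array quality in the flagged values was not tested.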

How the results depend on the processing

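No member had an adjusted p below 0.05 under any of the 20 alternatives, and the lowest over them was 0.426. The 20 are not separate checks: the first-slide setting and the one without R6/2 replicate 4 use the same arrays. Atg2b kept a negative difference (-1.59 to -0.88) and an unadjusted p under 0.05 in 20 of 20. Atg16l2 did so in 19 of 20 (-2.03 to -0.48), the exception being the mean of a gene's probes, under which 1 member had non-overlapping groups. With normexp background correction the difference was -0.88 for Atg2b and -1.02 for Atg16l2, nearer 0 than in the main setting. Within the first slide, which leaves out R6/2 replicate 4, 1 member (Atg10) had a higher R6/2 level at an unadjusted p under 0.05. Lower members at that level numbered 2 to 3, with Wipi1 added by the mean of probes, Gabarapl1 by trend and robust fitting and Atg9b by no filter. Leaving out each array in turn gave 0 to 1 higher members at that level, 2 to 4 with non-overlapping groups (4 without WT replicate 1, which adds Pik3c3 and Gabarapl2) and a median difference of -0.10 to 0.14. The count over all genes at an adjusted p below 0.05 was 1 in the main setting, 8 with normexp, 8 with quantile scaling, 6 with the filter on all 8 arrays, 5 with the mean of probes, 11 with trend and robust fitting, 0 with the methods' t-test, named in the deposited table's header, and 0 to 3 with an array left out. Scaling to the array median moved the median of all genes from 0.03 to -0.06.

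Some differences changed sign, among them those of Atg13 (-0.30 with all arrays) and Atg9a (0.31). Gabarap was 0.021 with normexp, 0.051 with quantile scaling, 0.41 with the mean of probes and 0.10 within the first slide. Map1lc3a was 0.00066 with quantile scaling, Becn1 -0.0085 and Map1lc3b -0.0023 with array-median scaling, and Sqstm1 0.33 with the mean of probes. That mean includes a probe well above background on only 3 WT arrays for Gabarap and 2 for Sqstm1. Within the first slide Atg4d was -0.00091, Nbr1 0.24 and Uvrag 0.11. With an array left out, the ranges that crossed 0 were -0.28 to 0.022 for Atg12, -0.58 to 0.022 for Atg13, -0.18 to 0.44 for Atg2a, -0.00091 to 0.32 for Atg4d, -0.33 to 0.11 for Atg5, -0.11 to 0.63 for Atg9a, -0.14 to 0.14 for Gabarap, -0.26 to 0.14 for Map1lc3a, -0.094 to 0.21 for Map1lc3b, -0.37 to 0.24 for Nbr1, -0.50 to 0.17 for Sqstm1, -0.21 to 0.069 for Tfeb, -0.25 to 0.17 for Ulk1, -0.32 to 0.27 for Uvrag and -0.0094 to 0.20 for Wipi2. The cause was not tested.

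Over all genes, the deviations of same-numbered arrays had correlations of -0.05 to 0.03, and the numbers were not used for pairing. Whether same-numbered arrays shared a preparation was not tested. With the replicate number as a block, 0 genes passed, and the unadjusted limma p was 0.0276 for Atg2b and 0.0012 for Atg16l2 (adjusted 0.721 and 0.667).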

Other observations

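WT replicate 2 carried more of the extreme autophagy values than any other array. Among the 33 measured members it was the highest of the 8 arrays for 11 and the lowest for 10. Over all genes it was the highest for 21.6% and the lowest for 13.3%. The next array by this count, R6/2 replicate 4, was highest for 5 members and lowest for 5, and over all genes it was highest for 21.2% and lowest for 14%. The median deviation of the members from their gene's mean was largest in size on WT replicate 4, at 0.23, beside -0.03 over all genes. On the arrays other than WT replicates 2 and 4 it was between -0.08 and 0.09. On WT replicate 2 it was -0.18, beside 0.13 over all genes. The 10 members lowest there were all 3 measured Atg4 proteases (Atg4b, Atg4c and Atg4d), the conjugating enzyme gene Atg3, the membrane supply genes Atg2a and Atg9a, the scaffold gene Becn1, and Sqstm1, Nbr1 and Wdfy3, which handle cargo. The 11 highest there were Ulk1, Ambra1, Pik3r4, Atg14, Uvrag, Atg2b, Wipi1, Atg5, Atg12, Atg16l2 and Gabarapl1.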
